A study of Mus musculus with 4 samples.

Results

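Basement membranes are thin sheets of extracellular matrix that surround each cardiomyocyte and underlie the endothelium of the heart. They are built on a network of collagen IV and a network of laminin, which is a trimer of an alpha, a beta and a gamma chain, and nidogen and perlecan link the networks to each other. Collagens XV and XVIII sit at the border between the basement membrane and the interstitial matrix, and SPARC is a secreted collagen-binding glycoprotein of wound and bone matrix. The 10 genes described here are Col4a1 and Col4a2 (the collagen IV chains of most tissues), Col15a1, Col18a1, Lama2 (the laminin alpha chain of muscle), Lamb1, Lamc1, Nid1 (nidogen 1), Hspg2 (perlecan) and Sparc. They were found by gene symbol among the 32285 genes counted, and all 10 were among the 4769 genes with at least 1000 UMIs that entered the tests.

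The samples were 4 fresh-frozen heart sections of 10 µm on Visium slides, on which each spot captures mRNA from a small patch of tissue that can hold several cells. Each section came from 1 female ICR mouse of 12 weeks with permanent ligation of the left anterior descending coronary artery, which gives a myocardial infarction (MI), and was taken on day 1, 4, 7 or 14 after MI. All 4 mice had the ligation, the labels name no transgene, and no uninjured heart was analysed here. With 1 mouse per day, the day and the mouse cannot be told apart, so differences between days carry counting intervals and no test.

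Spots in which hemoglobin genes gave more than 1% of unique molecular identifiers (UMIs) were removed, which left 7503 of 9102 spots and from 9292678 to 15713779 UMIs per section. The spots of each section were ranked by the share of their UMIs from Myh6 and Myl2, which encode cardiomyocyte myosin chains, and cut into 4 equal groups, from Q1 with the least cardiomyocyte myosin to Q4 with the most. Levels are given as CPM, UMIs of a gene per 1000000 UMIs of the group. In Q1 Myh6 and Myl2 gave 0.773%, 0.271%, 0.229% and 1.53% of UMIs on days 1, 4, 7 and 14, against 2.56% to 2.82% in Q4. On day 14 Q1 therefore held more cardiomyocyte RNA than on the other days. All 8 other cardiomyocyte genes on a fixed list, Tnnt2 and Ryr2 among them, were lower in Q1 by the test described below (7 of 8 with total UMIs in place of TMM normalization), where 32.4% of all genes were lower. Ranking by 2 cardiomyocyte genes favors this outcome, so it only describes the groups. The CPM of Actc1 was higher in Q1 on day 1, at 9690 against 8320 in Q4. Skeletal muscle spots, in which 10 genes of fast muscle fibers gave 10 UMIs or more, were found in the day 7 section alone, 115 in Q1 and 3 in Q2. Those genes summed to 20340 CPM in Q1 of day 7 and to 4.75, 19.9 and 17.3 in Q1 of days 1, 4 and 14. The section barcodes overlapped, 1332 of 3178 being present in all 4 sections, because every Visium slide carries the same printed set.

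The annotated genes lie, in GRCm38 and GENCODE vM21, on chromosomes 8 (Col4a1, 11198423 to 11312826 on the minus strand, and Col4a2, 11312805 to 11449287 on the plus strand), 4 (Col15a1 and Hspg2), 10 (Col18a1 and Lama2), 12 (Lamb1), 1 (Lamc1), 13 (Nid1) and 11 (Sparc). The starts of Col4a1 and Col4a2 overlap by 22 bases on opposite strands, so that the 250 bases before each start lie in the first exon of the other gene. RefSeq promoter sequence (GRCm38.p6) was at hand for 9 of the 10 genes (not Lamc1). The stretch from 250 to 60 bases before the RefSeq start is shown for 1 laminin chain that was not called higher in Q1, Lama2 (chr10:27617002-27617192, minus strand), for 1 that was, Lamb1 (chr12:31265043-31265233, plus strand), and for the linker Nid1 (chr13:13437352-13437542, plus strand), because no annotated exon covers it in these genes. Capitals mark the GC box (GGGCGG), the TEAD motif (GGAATG) and the CCAAT box on either strand.
Lama2: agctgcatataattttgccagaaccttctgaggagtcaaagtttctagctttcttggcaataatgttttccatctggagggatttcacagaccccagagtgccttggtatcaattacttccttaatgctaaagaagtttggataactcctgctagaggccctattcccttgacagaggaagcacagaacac
Lamb1: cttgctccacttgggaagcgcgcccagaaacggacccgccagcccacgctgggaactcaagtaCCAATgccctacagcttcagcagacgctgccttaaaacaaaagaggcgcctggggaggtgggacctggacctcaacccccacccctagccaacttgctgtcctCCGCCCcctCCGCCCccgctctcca
Nid1: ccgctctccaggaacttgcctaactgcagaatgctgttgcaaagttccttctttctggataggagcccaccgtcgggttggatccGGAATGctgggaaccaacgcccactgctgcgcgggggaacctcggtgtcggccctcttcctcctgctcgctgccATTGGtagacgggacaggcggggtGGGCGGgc
The Lama2 stretch held no GC box and no CCAAT box and had a GC content of 42.9%, against 2 GC boxes, 1 CCAAT box and 63.9% for Lamb1 and 1 GC box, 1 CCAAT box, 1 TEAD motif and 62.8% for Nid1. Among 27025 promoters the same stretch held a GC box in 23.0%, a CCAAT box in 27.4% and the TEAD motif in 10.2%, and the median GC content was 51.3%. The RefSeq start of Lama2 lies 2816 bases inside the outermost GENCODE start. In the full 250 bases, Sparc and Col15a1, both called higher in Q1, also held no GC box and no CCAAT box. Their GC content was 54% and 53.6%. Col4a2, Col18a1, Lamb1 and Nid1 held both boxes there, Hspg2 the GC box alone and Col4a1 the CCAAT box alone. These matches describe the letters of the windows only, and a link to the level in Q1 was not tested.

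The first comparison asked how the 10 genes are distributed between the spots poorest and richest in cardiomyocyte myosin after MI. All but Lama2, 9 of the 10, passed the test across sections as higher in Q1. For 7 of these 9 the CPM in Q1 was above that in Q4 on every day beyond the counting interval, while Lamb1 and Lamc1 on day 1 were within it. The share of all genes that meet this was not counted. CPM leaned toward Q1 over all genes, with a median log2 fold change of 0.55 with total UMIs. Sparc and Col18a1 rose the most, the collagen IV pair, Col15a1, Hspg2 and Nid1 rose less, and the laminin chains Lamb1 and Lamc1 rose least. Col18a1 passed the filter of 1000 UMIs only through its UMIs in Q1. The 10 genes together gave 2842, 11207, 11102 and 3449 CPM in Q1 on days 1, 4, 7 and 14, and 1060, 898, 1555 and 1029 in Q4. Sparc gave most of the sum in Q1 on days 4, 7 and 14. By edgeR's quasi-likelihood test with the section as a block, 9 of the 10 genes were higher in Q1 and none was lower at an adjusted p under 0.05, where 35.2% of all 4769 genes were higher and 32.4% lower. The median log2 fold change was 1.27 over the 10 genes and 0.05 over all genes tested. Without the day 4 section 6 of the 10 were called (Col18a1 then fell under 1000 UMIs), and without day 7, 7 were. Over the left-out sections 1022 to 1364 of all genes were called higher, against 1679 with all sections.

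**Figure D1:**
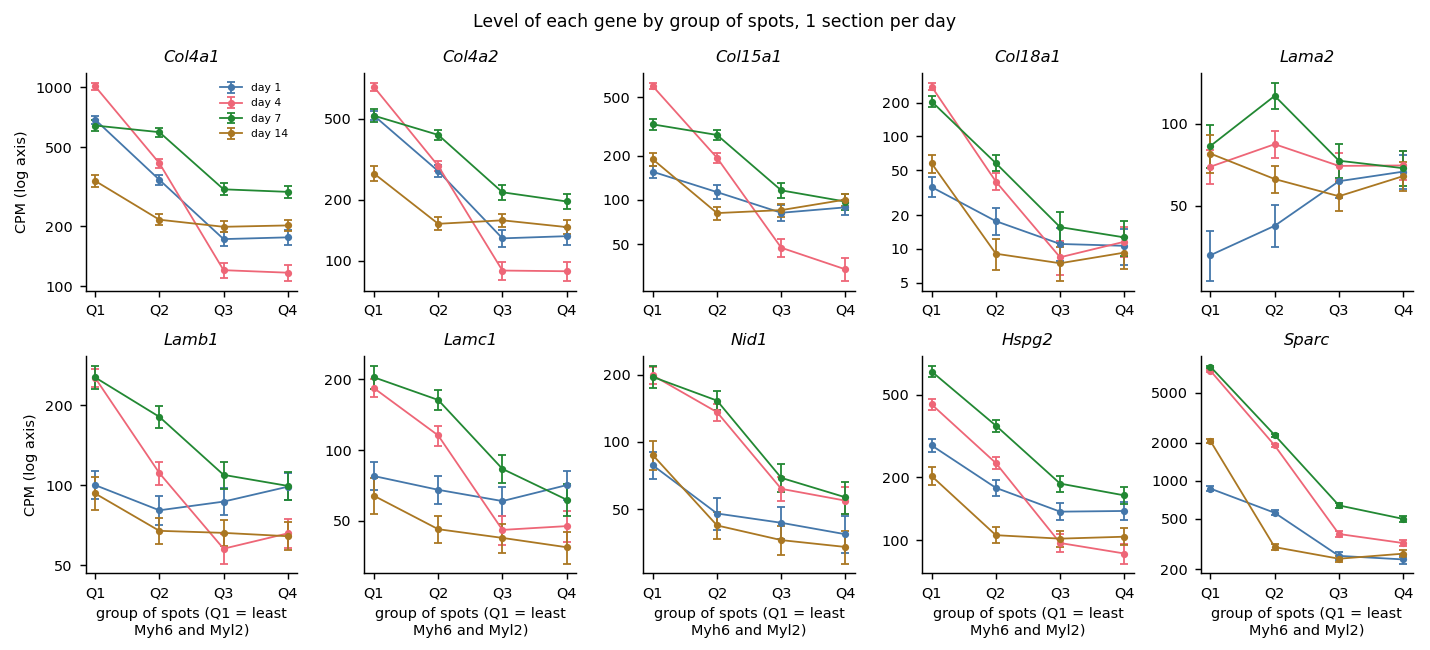
CPM (log axis) of each gene against the group of spots, from Q1 (least Myh6 and Myl2) to Q4 (most), with 1 line per day (1 section each) and 95% Poisson counting intervals as bars. Every gene but Lama2 is highest in Q1 on every day, and Sparc spans from 239 in Q4 on day 1 to 8025 in Q1 on day 7.

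Collagen IV is the scaffold of every basement membrane, and its alpha 1 and alpha 2 chains are made together in a trimer. Col4a1 stood at 689, 1013, 643 and 339 CPM in Q1 on days 1, 4, 7 and 14. Its levels in Q4 were 176, 117, 298 and 202. The lowest value in Q1, 339 on day 14, was little above the highest in Q4, 298 on day 7. Those 2 values come from different mice, and the share of all genes without overlap was not counted. The fitted log2 fold change was 1.36 (SE 0.29, adjusted p = 0.00125, edgeR). Col4a2 followed it, with 518, 717, 518 and 269 in Q1 against 132, 89.0, 196 and 147 in Q4. Its log2 fold change was 1.43 (SE 0.27, adjusted p = 0.000512, edgeR). The ratio of Q1 to Q4 was largest on day 4 for both chains, at 8.66 (95% counting interval 7.84 to 9.60) for Col4a1 and 8.05 (7.17 to 9.07) for Col4a2, and smallest on day 14, at 1.68 (1.51 to 1.85) and 1.83 (1.63 to 2.06).

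The ratio of the 2 chains barely moved while their levels did. Col4a2 gave from 0.708 to 0.805 UMIs per UMI of Col4a1 in Q1 and from 0.658 to 0.761 in Q4, a ratio of captured transcripts that also depends on how well each is captured. Its log2 change from Q4 to Q1 was 0.08 ± 0.17 (SD, n = 4 sections, exact two-sided sign-flip permutation test, p = 0.375, adjusted over 3 chain ratios 0.375), and the smallest p that 4 sections allow is 0.13. Of all genes tested, Col4a2 was the one most like Col4a1 over the 16 libraries of 4 groups of spots and 4 sections (r = 0.996 on log2 CPM plus 1), ahead of Tuba1a at 0.962 and Myadm at 0.961. For Col4a2 the next were Tuba1a (0.974) and Gng12 (0.968). The libraries share their ranking by cardiomyocyte RNA, so these values are given as descriptions.

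**Figure D2:**
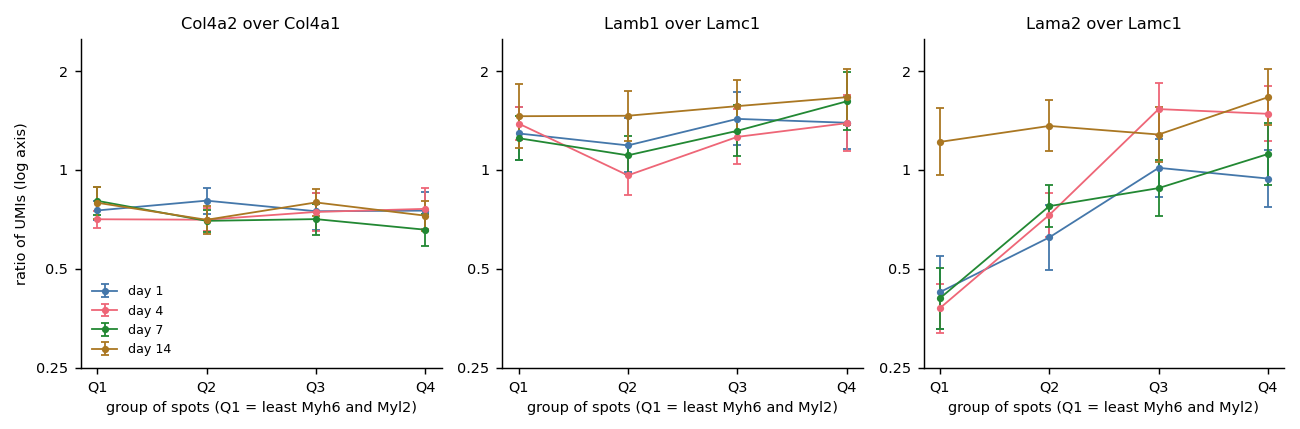
Ratio of UMIs of 2 chains (log axis) against the group of spots (Q1 = least Myh6 and Myl2), 1 line per day and 95% conditional counting intervals as bars. Col4a2 over Col4a1 stays between 0.658 and 0.806 in all 16 libraries, whereas Lama2 over Lamc1 falls toward Q1, to 0.379 on day 4.

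Collagens XV and XVIII carry heparan or chondroitin sulfate chains, and the end of collagen XVIII can be released as endostatin. Col15a1 had 156, 595, 327 and 189 CPM in Q1 on days 1, 4, 7 and 14, against 89.1, 33.7, 97.5 and 100.6 in Q4. Day 4 held both its highest level in Q1 and its lowest in Q4, a ratio of 17.6 (14.7 to 21.3). Its log2 fold change over sections was 1.47 (SE 0.43, adjusted p = 0.00841, edgeR). Col18a1 was sparse in Q4, at 10.7, 11.6, 12.7 and 9.28 CPM in Q4, where day 1 rested on 31 UMIs. In Q1 it reached 35.4, 277, 204 and 57.6. Its ratio was 3.32 (2.20 to 5.15), 23.9 (17.6 to 33.2), 16.1 (11.2 to 23.8) and 6.21 (4.29 to 9.15) from day 1 to day 14, and its log2 fold change was 2.96 (SE 0.41, adjusted p = 9.69e-05, edgeR). Col18a1 also separated Q1 from Q2, with a log2 fold change of 1.82 (SE 0.37, adjusted p = 0.00498, edgeR). Closest to Col18a1 over the 16 libraries were Fuca1 (r = 0.990), Ecm1 (0.988) and Col5a1 (0.988), and closest to Col15a1 were Gask1b (0.958), Commd8 (0.954) and Itga1 (0.951), the last encoding an integrin alpha chain that binds collagen.

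The laminin chains parted. Lamb1 and Lamc1 encode the beta 1 and gamma 1 chains shared by most laminins, and Lama2 encodes the alpha 2 chain of the laminins around muscle fibers. Lamb1 had 100.1, 254, 255 and 93.1 CPM in Q1 and 98.7, 65.9, 99.4 and 64.2 in Q4. Lamc1 had 77.5, 183, 204 and 63.8 against 70.9, 47.4, 61.4 and 38.5. Both chains overlapped between the groups, their lowest values in Q1 lying below their highest in Q4. On day 1 neither chain was distinguishable from Q4, with ratios of CPM of 1.01 (0.856 to 1.20) and 1.09 (0.898 to 1.33), which became 0.764 and 0.823 with the TMM factors of the fit, and on day 4 both stood near 3.9-fold, at 3.86 (3.34 to 4.48) and 3.87 (3.26 to 4.61). Over sections the log2 fold change was 0.59 for Lamb1 (SE 0.23, adjusted p = 0.0391, edgeR) and 0.73 for Lamc1 (SE 0.24, adjusted p = 0.0161, edgeR). The calls of these chains were the least firm of the 9. Lamb1 was not called without the day 4, day 7 or day 14 section (adjusted p = 0.176, 0.151 and 0.0576) nor in 5 other settings given in the closing section, and Lamc1 was not called without day 4 (0.0818) or day 7 (0.099) nor in 2 other settings.

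Lama2 had 32.9, 69.6, 83.0 and 77.7 CPM in Q1 on days 1, 4, 7 and 14, and 66.7, 70.3, 68.7 and 64.2 in Q4. Q4 varied little between days, and in Q1 only day 1 stood apart, at 0.493 of Q4 (0.379 to 0.636). The ratios on days 4, 7 and 14, 0.990 (0.818 to 1.20), 1.21 (0.951 to 1.53) and 1.21 (0.990 to 1.48), had intervals that held 1. The log2 fold change was -0.50 (SE 0.24, adjusted p = 0.0831, edgeR), with the CPM higher in Q1 in 2 of 4 sections and, with the TMM factors, ratios of 0.371, 0.583, 0.833 and 1.03 on days 1, 4, 7 and 14. It was called lower without the day 14 section (-0.70, adjusted p = 0.0379, edgeR) and by DESeq2 on all 4 (-0.53, adjusted p = 0.0448). The value rests on the scaling, since with total UMIs in place of TMM normalization it was -0.02 (adjusted p = 0.929), the median of all genes moved from 0.05 to 0.55 and the genes called changed from 1679 higher and 1547 lower to 2764 and 836. Relative to the gamma chain, Lama2 was lower in Q1 in all 4 sections. The log2 change of the Lama2 to Lamc1 ratio was -1.26 ± 0.63 (SD, n = 4, exact sign-flip permutation test, p = 0.13, adjusted 0.19), the smallest p the design allows. That of Lamb1 to Lamc1 was -0.17 ± 0.16 (same exact test, p = 0.13, adjusted 0.19), from -0.37 on day 7 to -0.004 on day 4. The counting intervals of that ratio in Q1 and Q4 overlapped on every day. The genes most like Lamb1 were Lama4 (r = 0.982), another laminin alpha chain, Add1 (0.976) and Cnot2 (0.969), and those most like Lamc1 were Lamb1 (0.969), Lama4 (0.964) and Clstn1 (0.956). Those most like Lama2 were Htra3 (0.936), Sparcl1 (0.907) and Rgs5 (0.905), a pericyte gene. Lama2 correlated with the other 9 genes at 0.033 to 0.477, where the other pairs lay between 0.791 and 0.996.

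Nidogen 1 and perlecan bridge laminin and collagen IV. Nid1 had 78.6, 199, 196 and 87.3 CPM in Q1 against 38.5, 54.5, 56.4 and 33.8 in Q4. Its ratios lay close together over the days, between 2.04 (1.62 to 2.59) on day 1 and 3.65 (3.11 to 4.30) on day 4. The log2 fold change was 1.11 (SE 0.18, adjusted p = 0.000211, edgeR). Hspg2 had 285, 449, 646 and 203 in Q1 against 138, 86.1, 164 and 104 in Q4, and its log2 fold change was 1.18 (SE 0.20, adjusted p = 0.000281, edgeR). Hspg2 was 5.21 times (4.61 to 5.90) as high in Q1 as in Q4 on day 4. Closest to Nid1 were B2m (r = 0.979), Col1a1 (0.978) and Mfap5 (0.977), and closest to Hspg2 were Ski (0.983), Pea15a (0.980) and Kctd10 (0.975).

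Sparc had the most UMIs of the 10 genes in Q1, though counts of different genes were not scaled to length. Its level in Q1 was 870, 7450, 8025 and 2070 CPM on days 1, 4, 7 and 14. In Q4 it was 239, 322, 501 and 266. Q1 was above Q4 by 3.64 (3.34 to 3.96), 23.1 (21.8 to 24.5), 16.03 (15.1 to 17.0) and 7.79 (7.30 to 8.33) times. The log2 fold change was 2.99 (SE 0.40, adjusted p = 8.54e-05, edgeR), the 83rd largest of the 4769 genes. On day 4 68.2% of all Sparc UMIs of the section lay in Q1, which held 19.2% of all UMIs. Closest to Sparc were Serpinf1 (r = 0.995), Bgn (0.994) and Col5a1 (0.994), Bgn encoding the matrix proteoglycan biglycan and Col5a1 a chain of fibrillar collagen V.

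**Figure D3:**
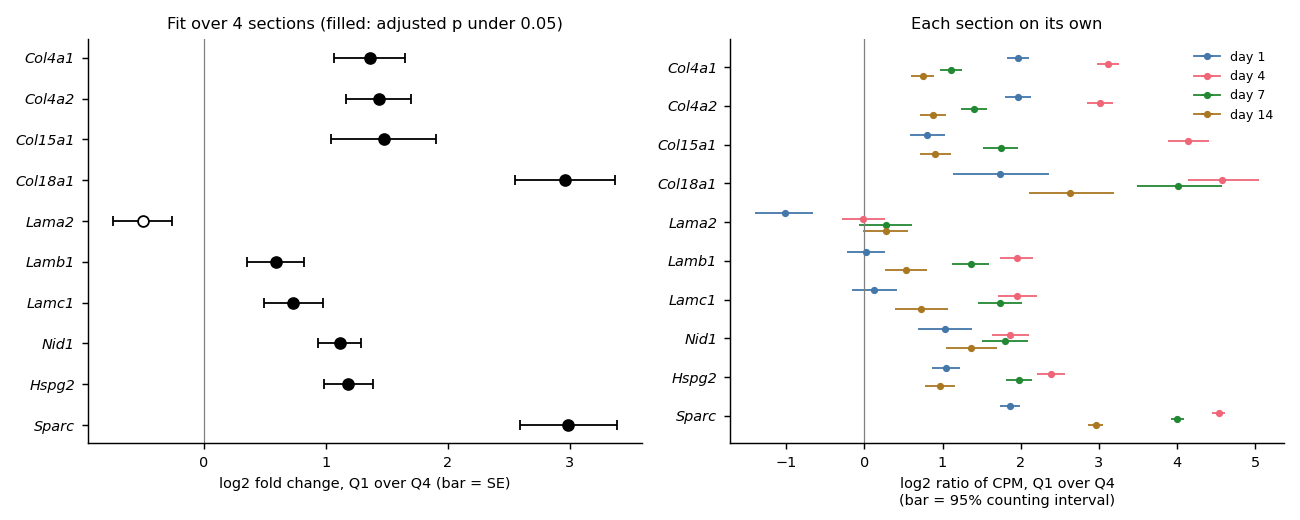
Left, log2 fold change of Q1 over Q4 from the fit over 4 sections, with SE as bars, filled where the adjusted p was under 0.05. Right, log2 ratio of CPM of Q1 over Q4 in the section of each day with 95% counting intervals. On the right, day 4 lies farthest to the right for 9 genes, and Lama2 lies below 0 on day 1 alone beyond its interval.

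The second comparison asked how far up the ranking the rise reached. In Q2, Nid1 alone was called against Q4 (log2 fold change 0.79, SE 0.18, adjusted p = 0.0381, edgeR), where 3.36% of all genes were higher and 0.189% lower. Sparc followed at 1.47 (SE 0.38, adjusted p = 0.0509). Without the day 14 section, 5 of the 10 genes were called in Q2, and without any one of the other sections none was. The count of all genes called higher there moved too, from 0 to 464 over the left-out sections, against 160 with all sections. In Q3 none of the 4769 genes was called against Q4 by edgeR (0% higher and 0% lower, with 28 genes at an unadjusted p under 0.05, and 0 by DESeq2), and none of the 10 genes was among those 28. The fit used 1 estimate of the spread for all 16 libraries, so this comparison had little power and cannot show that Q3 equals Q4. Sparc, for example, was above Q4 beyond its counting interval on days 4 (380 against 322 CPM) and 7 (640 against 501). On days 1 and 14 its intervals overlapped. Over the 10 genes, the CPM was higher in Q3 in 1 (Lama2) to 4 (Nid1) of the 4 sections. Between Q1 and Q2, Col18a1, Sparc (1.51, SE 0.38, adjusted p = 0.00823, edgeR) and Hspg2 (0.54, SE 0.20, adjusted p = 0.0386, edgeR) were higher in Q1, where 22.7% of all genes were higher and 24.9% lower. Without the day 4 or the day 7 section 1 of the 10 was called there, and without the skeletal muscle spots 5 were. Of all genes, 312 to 933 were higher over the left-out sections and 494 to 2439 over the other settings, against 1083 here.

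A finer cut of each section into 10 equal groups of spots, D1 to D10 on the same ranking, showed where the levels lay. On day 4 Sparc fell from 8617 CPM in D1 to 4560 in D3 and 725 in D5, and on day 14 it fell from 8925 in D1 to 1512 in D2 and 323 in D3. In D4 it still stood at 643, 2263 and 2196 on days 1, 4 and 7, against 246, 333 and 435 in D10, whereas on day 14 it stood at 270 against 249. On day 7, 8 of the 10 genes, all but Col18a1 and Sparc, were highest in D3. Col4a1, Col4a2, Col15a1, Lamb1, Lamc1, Nid1 and Hspg2 stood there at 991, 716, 473, 287, 307, 258 and 715 CPM, against 603, 480, 310, 237, 166, 183 and 523 in D1. For Lamb1 the intervals of both overlapped. The intervals of D2 and D3 overlapped for Hspg2 (714.9 and 715.02 CPM), Lamb1 (256 and 287) and Nid1 (185 and 258), so their highest group was not settled. Most of the skeletal muscle transcripts of that section lay in D1 and D2 (26688 and 19949 CPM over 10 genes, against 1625 in D3). The part of those spots in this order was not tested. Lama2 was highest in D3 and D4 on day 7 (153 and 145) and in D4 on day 4 (97.8). It was lowest in D1 on both day 1 (28.0) and day 4 (48.7).

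**Figure D4:**
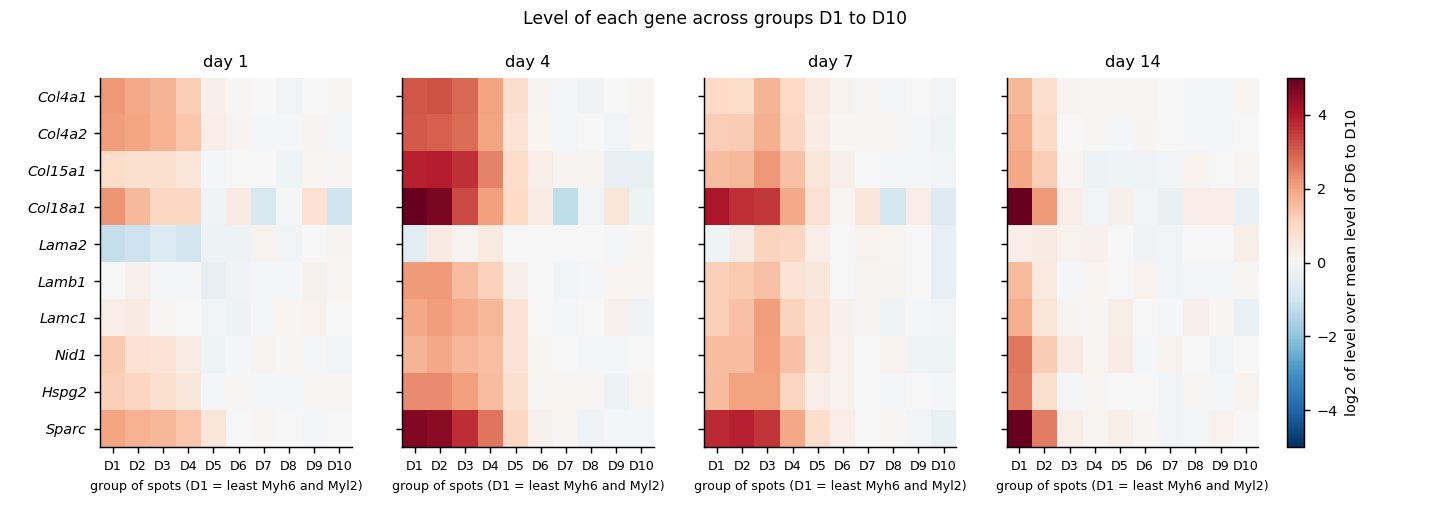
Log2 of the level of each gene in each of D1 to D10 over its mean level in D6 to D10 of the same section, 1 panel per day (D1 = least Myh6 and Myl2, colors from blue for lower to red for higher). For most genes red reaches D4 or D5 on days 1, 4 and 7 and D2 on day 14, and the Lama2 row turns blue toward D1 on day 1.

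The third comparison followed the days. From day 1 to day 4, 7 of the 10 genes rose at least 2-fold in Q1 (Col15a1, Col18a1, Lama2, Lamb1, Lamc1, Nid1 and Sparc) and none fell, where 10.7% of genes rose and 7.26% fell by as much. The median log2 ratio was 1.29 over the 10 genes and 0.13 over all. Sparc rose 8.57-fold (8.21 to 8.94), Col18a1 7.81-fold (6.32 to 9.75) and Col15a1 3.82-fold (3.43 to 4.26), whereas Col4a1 and Col4a2, already high on day 1, rose 1.47-fold (1.39 to 1.56) and 1.38-fold (1.29 to 1.48). From day 4 to day 7 none of the 10 changed 2-fold (3.77% of genes rose and 3.21% fell). Within that bound the collagens Col4a1, Col4a2, Col15a1 and Col18a1 were lower on day 7, at 0.635 (0.589 to 0.684), 0.723 (0.664 to 0.786), 0.550 (0.496 to 0.609) and 0.737 (0.642 to 0.843) of day 4, and Hspg2 was higher at 1.44 (1.32 to 1.57). Sparc was higher at 1.08 (1.05 to 1.10), and Lama2, Lamb1, Lamc1 and Nid1 differed by less than their counting intervals. The direction for Sparc depended on the set of spots. In D1 of all used spots Sparc was lower on day 7, at 0.887 (0.858 to 0.918) of day 4. There the interval of Hspg2 (1.10, 0.961 to 1.26) held 1. Over all spots under 1% of Myh6 and Myl2, Sparc was at 1.19 (1.17 to 1.22). In D1 without spots of skeletal muscle, day 7 stood above day 4 for Lamb1 at 1.31 (1.08 to 1.58), Lamc1 at 1.32 (1.05 to 1.67), Lama2 at 1.73 (1.13 to 2.63) and Sparc at 1.3003 (1.26 to 1.34), and the interval of Col18a1 (0.842, 0.704 to 1.01) held 1.

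From day 7 to day 14 the level in Q1 fell at least 2-fold for 6 of the 10 genes (Col18a1, Lamb1, Lamc1, Nid1, Hspg2 and Sparc), where 20.4% of genes fell and 7.84% rose, with medians of -1.31 over the 10 genes and -0.43 over all. On day 14 Q1 held 522 spots, while 260 spots of that section had under 1% of their UMIs from Myh6 and Myl2. On days 1, 4 and 7 Q1 held 473, 420 and 462 spots, while 422, 544 and 528 were under 1%. The part of this difference in the fall was not tested. In D1 Sparc was at 7647 (day 7) and 8925 (day 14) CPM, a ratio of 1.17 (1.11 to 1.22) in place of 0.258 (0.249 to 0.267) in Q1. D1 of day 14 was shallow, with 305447 UMIs at a median of 1140 per spot, against 703550 and 3442 in D1 of day 7. In the day 14 section 155 of the used spots had under 1000 UMIs. In D1, the ratio of day 14 to day 7 held 1 within its interval for the other 9 genes, from 0.828 (0.606 to 1.12) for Lamb1 to 1.23 (0.709 to 2.09) for Lama2. Without spots that held skeletal muscle transcripts, D1 of day 7 rose to 11205 for Sparc, and the ratio to day 14 became 0.796 (0.761 to 0.833) for Sparc, 0.558 (0.410 to 0.750) for Lamb1, 0.602 (0.415 to 0.857) for Lamc1 and 0.784 (0.655 to 0.934) for Hspg2, the others keeping 1 within their intervals. Over all spots under 1% of Myh6 and Myl2, Sparc was at 881, 6556, 7810 and 8559 on days 1, 4, 7 and 14, and the 10 genes together at 2871, 10033, 11103 and 11556. Sparc gave most of that sum on days 4, 7 and 14. The ratio of day 14 to day 7 there was 1.10 (1.05 to 1.14) for Sparc, 0.757 (0.581 to 0.974) for Lamb1 and 0.620 (0.455 to 0.829) for Lamc1. For the other genes it held 1 within its interval. Against day 4, day 14 was lower beyond the interval for Col4a1, Col4a2 and Col15a1 and higher for Hspg2 and Sparc. These spot sets were added after the levels had been seen.

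**Figure D5:**
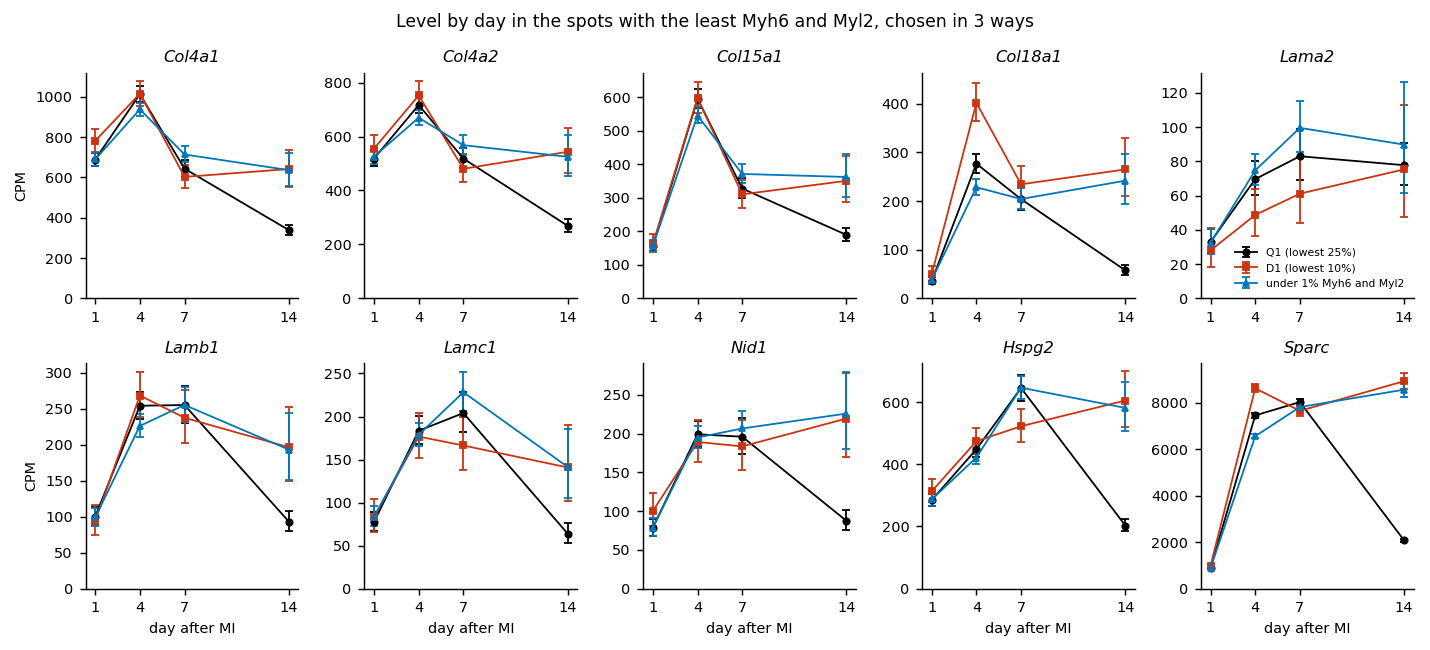
CPM of each gene against the day after MI in 3 sets of spots, Q1 of each section (circles), D1 (squares) and all spots under 1% of Myh6 and Myl2 (triangles), with 95% counting intervals and 1 section per day. Q1 falls between days 7 and 14 for 9 genes beyond its interval, while D1 of day 14 stands at 8925 for Sparc. The share of all genes that fell in this way was not counted, and their median log2 ratio in Q1 was -0.43.

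The ratio of the highest to the lowest day was smaller in Q4 than in Q1 for each of the 10 genes. In Q4 the collagen IV pair, Col15a1, both rising laminin chains and Hspg2 were lower on day 4 than on day 1, at 0.664 (0.583 to 0.755) for Col4a1, 0.378 (0.304 to 0.469) for Col15a1 and 0.624 (0.538 to 0.724) for Hspg2, and higher again on day 7, by 2.55-fold (2.27 to 2.87), 2.89-fold (2.33 to 3.61) and 1.90-fold (1.64 to 2.21) over day 4. Sparc and Nid1 moved the other way between days 1 and 4, at 1.35 (1.23 to 1.48) and 1.42 (1.12 to 1.80). Lama2 and Col18a1 in Q4 did not differ between these days beyond their intervals. As each day is 1 mouse, the spread between mice is not known.

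Other genes of the same pathway were counted from fixed lists in the comparison of Q1 with Q4. Of 22 other basement membrane components, 10 had enough UMIs to be tested, and 6 were higher (Fbln2, Pxdn, Fbln1, Lama4, Agrn and Vwa1) and 2 lower, both laminin chains (Lama5 and Lamb2), where 35.2% of all genes were higher and 32.4% lower. With total UMIs in place of TMM normalization, 8 were higher and none lower. The CPM of Fbln1 was higher in Q1 in 3 of 4 sections, with 43.8 against 114.6 in Q4 on day 1. Fbln2, which encodes the matrix glycoprotein fibulin 2, rose the most, with a log2 fold change of 2.37 (SE 0.29), and Lama5 had the largest decrease, at -0.59 (SE 0.14, adjusted p = 0.00227, edgeR). The lower calls rest on the scaling. With total UMIs Lama5 was at -0.09 (adjusted p = 0.607, edgeR) and Lamb2 at 0.05 (adjusted p = 0.766, edgeR), and the CPM of Lamb2 was higher in Q1 in 3 of 4 sections. Of the 3 laminin chains tested outside the 10 genes, Lama4 rose by 1.04 (SE 0.30, adjusted p = 0.00863, edgeR). Of 12 tested genes on a list of matrix receptors and cell-surface proteoglycans, 5 were higher and 3 lower, against 35.2% and 32.4% of all genes, and 8 and 2 with total UMIs. Sdc1, the cell-surface proteoglycan syndecan 1, rose by 3.47 (SE 0.28) and Gpc1, glypican 1, fell by 1.10 on the log2 scale (SE 0.20), by 0.63 with total UMIs. Itgb1, the beta 1 integrin that pairs with most matrix-binding alpha chains, rose by 0.93 (SE 0.17), and Dag1, dystroglycan, the main laminin alpha 2 receptor of muscle, was at -0.74 (SE 0.13, adjusted p = 0.000344, edgeR) and at -0.26 with total UMIs (adjusted p = 0.053, edgeR). Itga7, an integrin alpha chain on the same list, was at 0.03 (adjusted p = 0.935, edgeR). Its CPM was higher in Q1 in 2 of 4 sections, with 466 against 132 in Q4 on day 1. Itgb1, Dag1 and Itga7 were picked after their values were seen.

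Of 13 tested genes that fold and modify collagen, 10 were higher and none lower, with a median log2 fold change of 1.34 against 0.05 over all genes. P4ha2, Mia3 and Tmem131 did not pass (adjusted p = 0.228, 0.0628 and 0.375, edgeR). Serpinh1, the collagen chaperone HSP47, rose the most (2.07, SE 0.27), from 174, 140, 297 and 125 CPM in Q4 to 754, 1856, 1560 and 353 in Q1. Of 14 genes of matrix degradation, 5 had enough UMIs to be tested. All 5 were higher, led by the cathepsin Ctss (3.74, SE 0.41). The CPM of Mmp2 was higher in Q1 in 3 of 4 sections, with 36.9 against 91.8 in Q4 on day 1. For each list in this paragraph, 35.2% of all genes were higher and 32.4% lower in the same comparison. Of 8 genes related to Sparc, 3 were tested. Fstl1 rose (3.41, SE 0.43) and Sparcl1 was at -0.33 (SE 0.19, adjusted p = 0.139, edgeR). Smoc2 was at -0.56 (SE 0.23, adjusted p = 0.0483, edgeR), but its CPM was higher in Q1 in 2 of 4 sections and with total UMIs it was at -0.09 (adjusted p = 0.685, edgeR). All 8 interstitial collagens were higher, with a median of 3.39, and Col1a1 rose the most (3.98, SE 0.53). The CPM of Col6a2 was higher in Q1 in 3 of 4 sections, with 81.5 against 86.0 in Q4 on day 1.

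The summed levels of markers of other cell types also differed between these groups of spots, on some days or on all. In a bulk spot, more cells of a type and more RNA per cell cannot be told apart. The 12 endothelial genes summed to 818, 786, 684 and 595 CPM in Q1 on days 1, 4, 7 and 14 and to 679, 704, 770 and 511 in Q4, and of the 10 tested 1 was higher (Pecam1) and 2 lower (Kdr and Ly6c1), or 5 higher and none lower with total UMIs. The 8 markers of activated fibroblasts, Postn and Tnc among them, summed to 924, 8219, 8091 and 1669 in Q1 and to 70.9, 153, 180 and 74.7 in Q4, and all 5 tested were higher. The 10 mural genes summed to 609, 2033, 1184 and 692 against 535 to 612 (3 of 6 tested higher, 3 lower), the 8 fibroblast genes to 1087, 2987, 5260 and 3785 against 2284 to 3026 (4 of 7 higher, 1 lower) and the 8 macrophage genes to 1100, 6618, 4901 and 1784 against 332 to 499 (all 6 tested higher). With total UMIs, 3 mural genes were higher and 1 lower, 6 fibroblast genes were higher and 1 lower, and all 6 macrophage genes were higher. For each list in this paragraph, 35.2% of all genes were higher and 32.4% lower in the same comparison. With total UMIs, 2764 of the 4769 genes were higher and 836 lower. No endothelial, mural, fibroblast or macrophage marker was at 0 in any library, and 1 activated fibroblast marker was at 0 in Q4 of day 1. The 5 mesothelial genes summed to 9.87, 12.3, 258 and 59.5 in Q1 on days 1, 4, 7 and 14 against 4.48 to 16.9 in Q4. The 6 neutrophil genes summed to 403, 71.1, 74.1 and 161 against 4.04 to 17.2, and S100a9, the one tested, was higher (3.80, SE 0.55). The 5 adipocyte genes summed to 324, 5.80, 783 and 5.28 against 9.98 to 27.6, and of 2 tested Car3 was called higher. The 4 Schwann cell genes summed to 94.3, 3.63, 163 and 8.64 against 5.53 to 7.91. The part of these cell types in the rise of the 10 genes was not tested. The share of UMIs from mitochondrial genes was lower in Q1 on every day, at 18.6%, 8.73%, 10.1% and 29.8% against 27.1% to 33.2% in Q4, and without mitochondrial genes the same number of the 10 genes, 9, was called higher.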

How the data were processed

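mRNA was captured on Visium slides from 1 heart section of 1 mouse at each of 4 times after MI. The deposited values are raw UMI counts per gene and spot, which the authors made with Space Ranger 1.3.0 on mm10. The submitters' notes also name Seurat 4.1.1, whose filters had not been applied to them. The days are those of the sample labels and the methods, while the results text names another day for the first section. Neither the images nor the positions of spots entered the work, so groups of spots follow expression and not location. Alignment to genes and the capture of transcript ends can change the level of one gene against another, so levels were compared within a gene.

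Spots with over 1% of UMIs from 8 hemoglobin genes were removed. Remaining spots were ranked within each section by their share of Myh6 and Myl2 UMIs and summed in 4 equal groups, 16 libraries in all. Genes with at least 1000 UMIs were tested in edgeR 4.0.16 (limma 3.58.1, R 4.3.3) after TMM normalization, by quasi-likelihood with robust dispersion and a term for the section. Those UMIs were counted over all groups, so some genes entered only through Q1, and counts of tested genes that were higher in Q1 lean that way. Benjamini-Hochberg adjustment ran over 4769 genes, and genes under 0.05 were called. Standard errors were obtained from the estimate and its F statistic. Groups of 1 section share a mouse, so p-values measure how alike the 4 sections were and not a spread between mice of 1 day. The fit was tested on simulated counts. Intervals are exact 95% Poisson intervals, or exact conditional ones for ratios, and cover counting error only. Likeness is Pearson's r of log2 CPM plus 1 over the 16 libraries.

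The 10 genes and all gene lists were chosen with earlier results of these data known. By rule, the named genes were the 10, the 3 most like each, and the largest rise and fall called on each of 6 lists of related genes. Other genes, such as members of the lists and cell type markers, were named after their values were seen. Alternatives included DESeq2 1.42.0, scaling to total UMIs, other filters, rankings and bins, no section block and leaving out each section. Values were computed in Python 3.11.15 with SciPy 1.17.1. Other experiments of the study were not analysed here.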

Additional observations from a re-analysis of the deposited data

How the results depend on the processing

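Of the log2 fold changes from Q4 to Q1, those of Col4a1, Col4a2, Col18a1, Nid1, Hspg2 and Sparc kept their direction and their call in every setting that could test them, and the direction of each chain ratio did not change. With only the 2 compared groups in the fit, Col15a1 (1.45), Lamb1 (0.58) and Lamc1 (0.75) were not called. Lamb1 was also not called with genes of at least 10 UMIs (0.32), without the section block (0.65), in spots of at least 1000 UMIs (0.56) or with other ranking genes (0.52), and Lamc1 not with genes of at least 10 UMIs (0.47). Lama2 was called lower, as 1 of the 10 genes, by DESeq2 (-0.53), with genes of at least 10 UMIs (-0.76), with 5 groups of spots (-0.61) and for D1 against D10 (-1.02), a setting chosen after seeing the data. Leaving out each section gave 6 to 9 genes higher and 0 to 1 lower, and log2 fold changes from 0.40 to 0.94 for Lamb1, from 0.59 to 1.11 for Lamc1 and from -0.70 to -0.18 for Lama2.

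From Q4 to Q2, where 1 gene was called, 5 were higher by DESeq2, 8 with 5 groups of spots, 2 with genes of at least 10 UMIs or hemoglobin removed at 0.5%, and 0 with total UMIs, without the section block, with only the 2 compared groups, in spots of at least 1000 UMIs, with other ranking genes or without skeletal muscle spots, and the range over left-out sections was 0 to 5. From Q2 to Q1, where 3 were called, 7 were higher with total UMIs, 5 without skeletal muscle spots, 1 without the section block and 1 to 2 without each section, and 1 was lower by DESeq2, with genes of at least 10 UMIs and without the hemoglobin filter (0 to 1 over left-out sections). Lama2 from Q4 to Q2 turned to -0.049 with genes of at least 10 UMIs and ranged from -0.20 to 0.30 over left-out sections (-0.20 without day 7), and Lamc1 from Q2 to Q1 turned to -0.066 with genes of at least 10 UMIs, none of them called. Over all genes tested, the calls from Q4 to Q1 ranged from 1022 to 3633 higher and from 836 to 3116 lower over all settings, from Q4 to Q2 from 0 to 870 and 0 to 721, from Q4 to Q3 from 0 to 14 and 0 to 5, and from Q2 to Q1 from 312 to 2439 and 162 to 1952. The cause of these shifts was not tested.

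The summed level of the 10 genes in Q1 moved beyond its counting interval in these settings. On days 1, 4, 7 and 14 it was 2778, 10886, 10683 and 4668 CPM without the hemoglobin filter, 3492, 12279, 12348 and 4913 without mitochondrial genes, and 2926, 12245, 10865 and 5271 in the lowest of 5 groups. It was 11559 on day 7 with hemoglobin removed at 0.5%, 13215 on day 7 without skeletal muscle spots, 2469 on day 14 in spots of at least 1000 UMIs, and 11681 on day 4 and 3310 on day 14 with other ranking genes. In spot sets chosen after seeing the data it was 3146, 12542, 10446 and 11963 in D1, with 14919 on day 7 once skeletal muscle spots were removed, and 10033 and 11556 on days 4 and 14 in spots under 1% of Myh6 and Myl2. Q4 of day 1 gave 31 UMIs of Col18a1, so depth limits that gene most.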
